A study of Homo sapiens with 6 samples.

Results

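The loci described here are those of the nuclear effectors of the Hippo pathway: the coactivator genes YAP1 and WWTR1, the 4 TEAD genes TEAD1, TEAD2, TEAD3 and TEAD4, and VGLL4. WWTR1 encodes the protein called TAZ. Each locus was the gene span on the human genome build hg19 with 20 kb added on each side, and every deposited peak overlapping it by at least 1 bp was a member. The 7 windows held 225 of 392120 peaks in YAP replicate 1 and 220 of 353336 in YAP replicate 2. The TAZ replicates had 222 of 333505 and 193 of 310657. Merged across the libraries, they formed 230 regions of 452943 in all. The choice of genes used no measured value.

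The study compared chromatin occupancy of YAP and TAZ by chromatin immunoprecipitation followed by sequencing (ChIP-seq) in H1299, an established cell line from a human non-small cell lung carcinoma. Both antibody groups and the input group came from cells serum starved for 18 hours, with no further treatment named in the labels. There were 6 samples: 2 YAP libraries, 2 TAZ libraries and 2 inputs, the last used only through the lists of broad peaks called against them. All results come from 1 cell line, the labels do not say whether replicates were separate cultures, and spreads between them may be technical. Peak lists hold no expression, so the cell identity was not checked against marker genes.

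In the Hippo pathway a kinase cascade phosphorylates YAP and TAZ, which retains them in the cytoplasm. When the cascade is low they enter the nucleus. Neither protein binds DNA by itself: both reach it mainly through the TEAD factors, and VGLL4 competes with them for the same TEAD surface. The loci therefore encode the coactivators, their DNA-binding partners and a competitor, and peaks there are places where YAP or TAZ signal lay over the genes of their own complex.

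The promoters of 4 of the genes are shown because a region with peaks of both antibodies lay over the 5′ end of each. RefSeq's promoter table (build GRCh38.p14) held promoters for 5 of the 7 genes, 11 in all. The entries printed are the 250 bases before the most upstream listed start of YAP1, TEAD2, TEAD3 and VGLL4, 5′ to 3′, with the TEAD motif in capitals wherever it occurs. That motif was searched as CATTCC on either strand, which reads as GGAATG when it lies on the opposite one.
YAP1 promoter, chr11:102110197-102110446, plus strand: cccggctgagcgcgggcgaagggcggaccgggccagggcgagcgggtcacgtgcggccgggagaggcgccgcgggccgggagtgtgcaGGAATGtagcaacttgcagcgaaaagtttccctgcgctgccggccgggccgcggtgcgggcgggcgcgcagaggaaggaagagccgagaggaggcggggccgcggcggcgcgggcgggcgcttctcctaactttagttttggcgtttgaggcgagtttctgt
TEAD2 promoter, chr19:49362417-49362666, minus strand: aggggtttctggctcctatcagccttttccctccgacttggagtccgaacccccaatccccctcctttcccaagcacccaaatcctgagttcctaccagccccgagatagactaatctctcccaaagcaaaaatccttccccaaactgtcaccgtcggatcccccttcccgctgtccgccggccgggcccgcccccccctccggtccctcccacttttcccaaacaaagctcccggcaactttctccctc
TEAD3 promoter, chr6:35497080-35497329, minus strand: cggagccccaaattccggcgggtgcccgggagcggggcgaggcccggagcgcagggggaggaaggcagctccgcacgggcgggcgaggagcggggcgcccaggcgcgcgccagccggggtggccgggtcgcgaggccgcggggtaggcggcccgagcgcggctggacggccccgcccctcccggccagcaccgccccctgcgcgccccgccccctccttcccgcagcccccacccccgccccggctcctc
VGLL4 promoter, chr3:11720540-11720789, minus strand: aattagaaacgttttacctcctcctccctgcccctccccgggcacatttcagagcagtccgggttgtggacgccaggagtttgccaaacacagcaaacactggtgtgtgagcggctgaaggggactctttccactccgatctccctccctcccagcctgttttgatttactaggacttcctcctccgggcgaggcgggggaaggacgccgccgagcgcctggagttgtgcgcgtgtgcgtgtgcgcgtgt

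The YAP1 sequence held 1 TEAD motif, GGAATG, from 162 to 157 bases before the start. None of the other 10 promoters of these genes held it. Over all 35116 promoters in the table, windows of this length held the motif in 11.9%. The AP-1 motif TGANTCA, searched on both strands, was in 0 of the 11 promoters and in 6.57% of all, so it overlapped no TEAD motif in these genes. Matches describe letters only, and the table's build differs from that of the peaks, so no peak was placed on these coordinates.

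Taken as 1 set of bases, the 7 loci were covered more densely than the chromosomes with either antibody, although TEAD1, the widest window (310 kb), was covered less. Peaks covered 30.8 and 27.6% of the bases of the 7 windows in YAP replicates 1 and 2, and 26.5 and 28.6% in TAZ replicates 1 and 2. Over chromosomes 1 to 22 and X the same libraries covered 16.9, 14.8, 13.3 and 14.0%. The loci were thus covered 1.82 and 1.87 times as much as the chromosomes in the YAP libraries and 1.98 and 2.04 times in the TAZ libraries. TEAD1 alone had 10.3, 7.56, 7.85 and 6.81%, below the chromosomes in all 4 libraries. The density of peaks differed in the same direction, with 19.0, 18.5, 18.7 and 16.3 peaks per 100 kb at the loci against 12.9, 11.6, 11 and 10.2 over the chromosomes. Peaks at the loci were also wider, with medians of 970, 929.5, 882 and 992 bp against 613, 629, 638 and 717 bp. Peaks of at least 5 kb numbered 10, 6, 8 and 16 at the loci. They made up 4.44, 2.73, 3.6 and 8.29% of the peaks there, against 3.78, 3.45, 3.03 and 3.95% of all peaks, so TAZ replicate 2 stood apart in wide peaks at these loci.

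Over all deposited peaks the coverage did not separate the antibodies, and over peaks with a q-value of 0.01 or less it did. The YAP mean was 29.2% ± 2.2 and the TAZ mean 27.5% ± 1.5 (SD, n = 2), a difference of 1.66 percentage points, and TAZ replicate 2 lay between the YAP libraries (exact two-sided permutation p = 0.667). Under the stricter q-value YAP had 29.8 and 25.9% and TAZ 24.0 and 22.4%, without overlap, a difference of 4.69 points (exact two-sided permutation p = 0.333). Over all deposited peaks of the chromosomes the median −log10 q was also higher with YAP, 3.88 and 3.09, than with TAZ, 2.78 and 2.50. Coverage of the chromosomes under the stricter q-value was not computed, so this separation has no background beside it. Divided by each library's coverage of the chromosomes, the order turned round: both TAZ ratios were above both YAP ratios, a difference of -0.171 (exact two-sided permutation p = 0.333). That is the smallest p that 2 libraries against 2 can give, so no contrast between the antibodies here could pass 0.05. Leaving out YAP replicate 1 brought the difference in coverage to 0.0754 points, and leaving out YAP replicate 2 to 3.25. Leaving out TAZ replicate 1 or 2 gave 0.596 or 2.73 points.

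The loci differed from each other far more than the antibodies did. TEAD4 and TEAD3 were covered most, at 57.7% ± 6.4 and 57.3% ± 7.9 over the 4 libraries (SD, n = 4, both antibodies together), and TEAD2 followed at 44.5% ± 7.4. YAP1 had 31.1% ± 2.3, VGLL4 28.8% ± 2.9 and WWTR1 25.7% ± 3.2. TEAD1 was lowest at 8.12% ± 1.5. Every library of TEAD1, up to 10.3%, lay below every library of WWTR1, from 22%, and the highest YAP1 library, 34.4%, lay below the lowest TEAD2 library, 36.7%. The ranges of TEAD4, TEAD3 and TEAD2 overlapped, as did those of YAP1, VGLL4 and WWTR1, so the order within those sets did not exceed the spread over the 4 libraries. Compared within each library, YAP1 was above VGLL4 and above WWTR1 in 4 of 4, and TEAD4 was above TEAD2 in 4 of 4. VGLL4 was above WWTR1 in 3 of 4, TEAD3 above TEAD2 in 3 of 4 and TEAD4 above TEAD3 in 2 of 4.

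**Figure D1:**
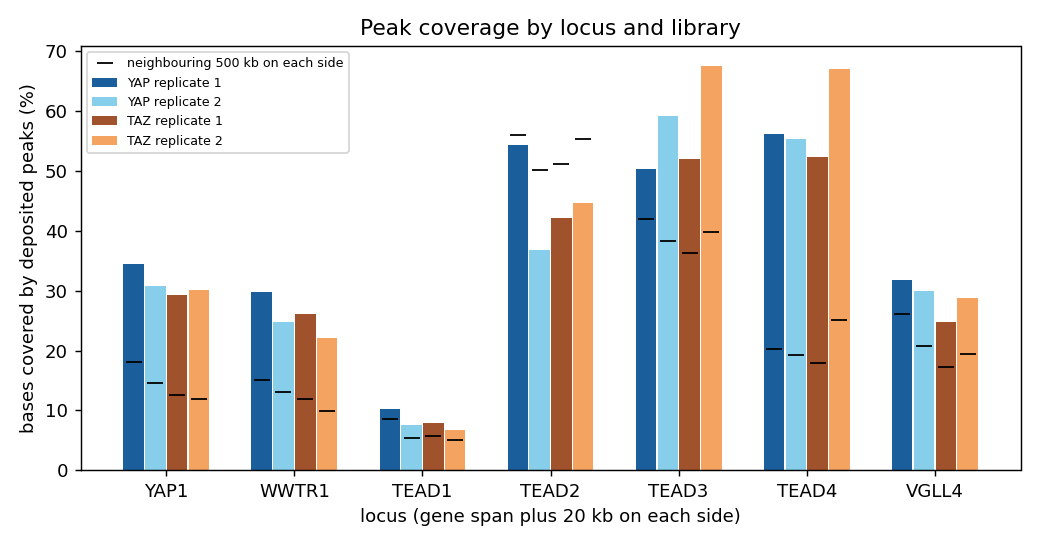
Percent of bases covered by deposited peaks (vertical axis) at each of the 7 loci, 1 bar per library; the short black lines give the coverage of the 500 kb on each side of the locus in the same library. TEAD4 bars stand at 52.4 to 67.0% above lines at 17.9 to 25.2%, whereas all 4 TEAD2 bars lie below their lines.

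Set against their surroundings, 6 of the 7 loci were covered more than the 500 kb on each side in all 4 libraries. So were 27.7% of 18810 windows of 150 kb along the chromosomes, which were not chosen for holding a gene. The excess was highest at TEAD4, 2.66 to 2.93 times. It was 1.91 to 2.53 times at YAP1 and 1.89 to 2.21 times at WWTR1. VGLL4 had 1.22 to 1.48 times, TEAD1 1.21 to 1.42 times and TEAD3 1.2 to 1.70 times. TEAD2 was the exception, with 0.733 to 0.970 times the coverage of its neighbourhood, which lies on chromosome 19, where peaks covered 46.5 to 50.6% of the whole chromosome. The windows also take in other genes: by adjacency in the RefSeq table, TEAD2 has CD37, DKKL1 and SLC6A16 within 20 kb, TEAD3 has FANCE, RPL10A and TULP1, TEAD4 has TULP3, WWTR1 has COMMD2 and TM4SF4, and VGLL4 has ATG7 and TAMM41. YAP1 and TEAD1 have no other protein-coding gene that close.

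Among the coactivator genes, YAP1 was one of the 2 loci where both YAP libraries exceeded both TAZ libraries. With YAP, peaks covered 34.4 and 30.8% of it, and with TAZ 29.2 and 30.1%, a mean difference of 2.92 points (exact two-sided permutation p = 0.333). The libraries overlapped at YAP1 with the gene span alone (1.16 points), with lists cut to equal length (2.70) and with a margin of 50 kb (1.86), and peaks enriched at least 4-fold gave -1.01 points. At WWTR1 the YAP libraries had 29.8 and 24.8% and the TAZ libraries 26.1 and 22%, a difference of 3.26 points with overlapping libraries (exact two-sided permutation p = 0.667). VGLL4 was the other locus without overlap, with 31.8 and 29.9% for YAP against 24.8 and 28.8% for TAZ, a difference of 4.01 points (exact two-sided permutation p = 0.333). There too the libraries overlapped with lists of equal length (1.54 points) and among peaks enriched at least 4-fold (0.854). They stayed apart at VGLL4 with the gene span alone (4.98 points) and with a margin of 50 kb (5.73). With a q-value of at most 0.01 they stayed apart at both loci, by 6.45 points at YAP1 and 7.94 at VGLL4. Other loci also separated in some settings, with YAP higher. These were TEAD1 with that q-value (3.51 points) and with a margin of 50 kb (1.90), TEAD2 with that margin (6.46) and WWTR1 among peaks enriched at least 4-fold (3.16). Over all deposited peaks, both YAP libraries exceeded both TAZ libraries in 56.9% of 18952 windows of 150 kb along the chromosomes. The 2 of 7 loci are not above that background. Both TAZ libraries exceeded both YAP libraries at 0 of the 7 loci and in 4.23% of the windows.

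The TEAD genes, which encode the DNA-binding partners, showed no common direction between antibodies. The YAP libraries had 10.3 and 7.56% at TEAD1, next to 7.85 and 6.81% of the TAZ libraries. At TEAD2 the values were 54.4 and 36.7% with YAP and 42.2 and 44.7% with TAZ, so both TAZ libraries lay between the YAP libraries, and the difference of 2.11 points was -6.71 without YAP replicate 1 and 10.9 without YAP replicate 2. TEAD3 was covered by 50.4 and 59.2% with YAP and by 52.0 and 67.5% with TAZ, and TEAD4 by 56.1 and 55.3% with YAP and by 52.4 and 67.0% with TAZ. TAZ replicate 2 had the highest value at both. The YAP minus TAZ difference, -4.92 points at TEAD3 and -3.96 at TEAD4, was smaller than the SD between the TAZ libraries (11 and 10.3 points, n = 2) and turned to 2.87 and 3.35 points without TAZ replicate 2. Over all deposited peaks and with the margin of 20 kb, the exact two-sided permutation p at the 4 TEAD loci was 0.667 or 1.

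**Figure D2:**
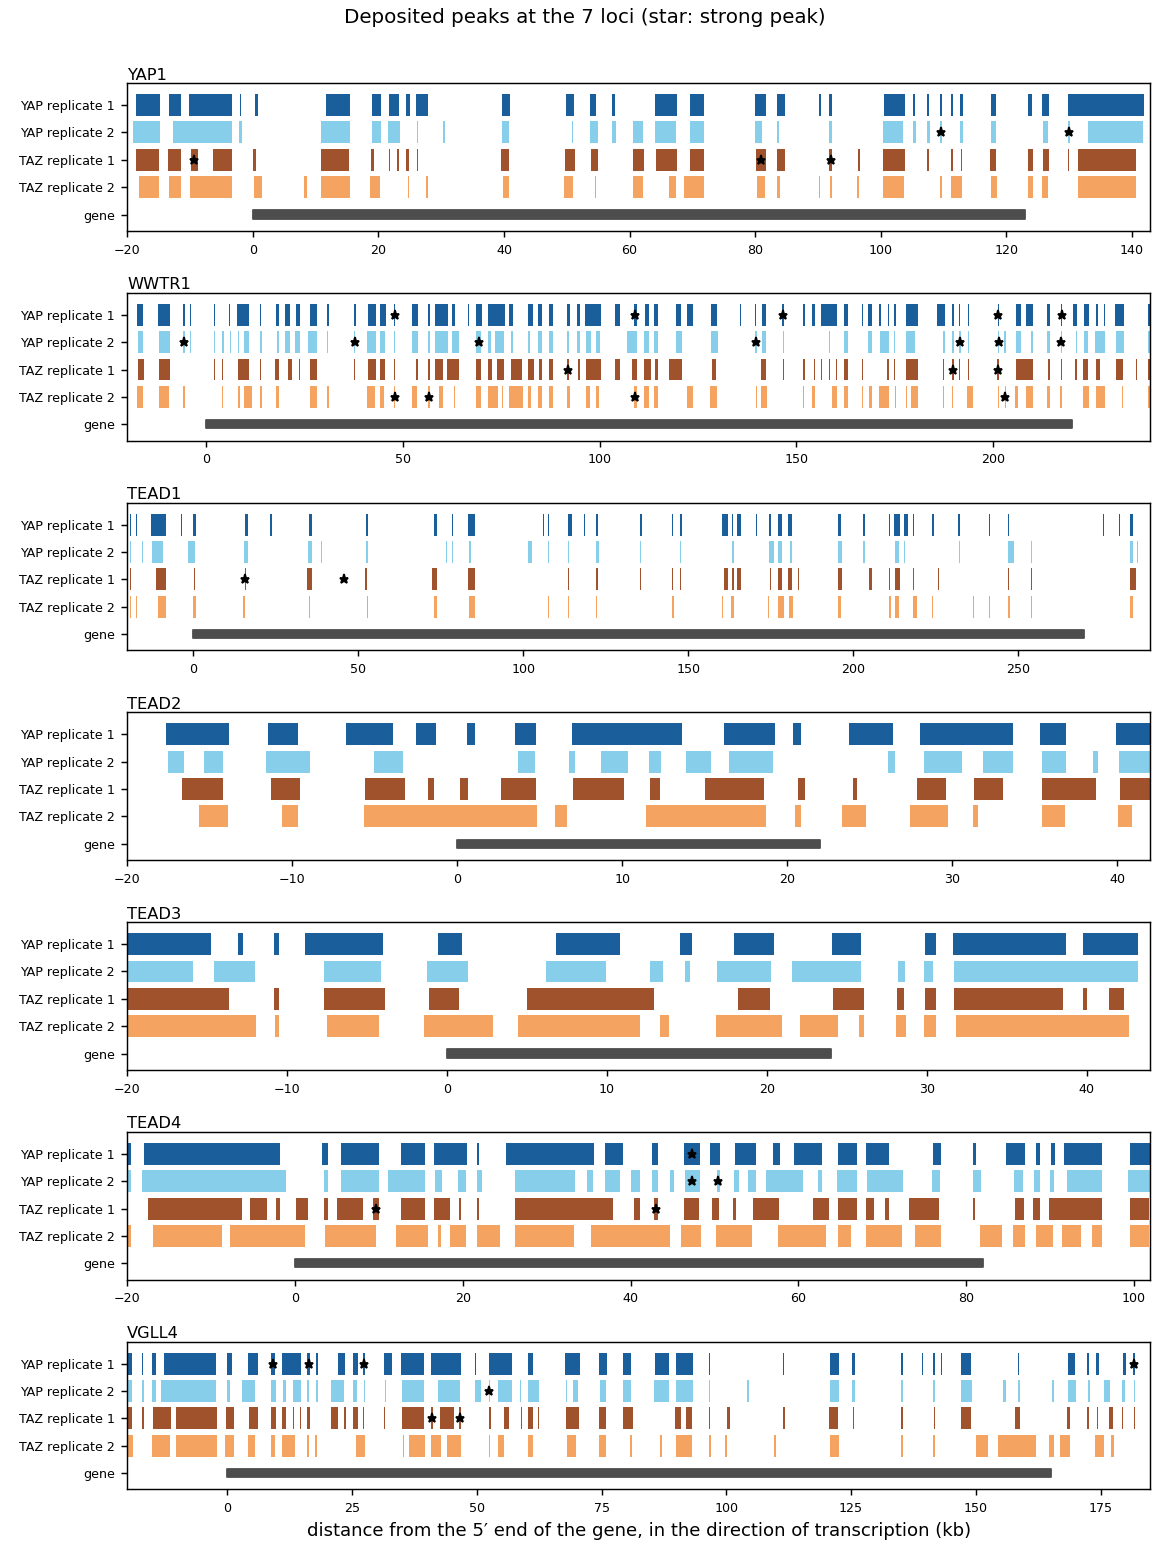
Deposited peaks at each locus by library, drawn by distance in kb from the 5′ end of the gene in the direction of transcription; the grey bar is the gene and stars mark strong peaks, the 20000 with the highest −log10 q in each library. Peaks of the 4 libraries line up along YAP1, WWTR1 and VGLL4, TEAD3 and TEAD4 are filled by blocks of several kb, and TEAD1 holds thin, scattered peaks.

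The peaks lay in different parts of the loci. At YAP1 the flanks were covered more than the gene in all 4 libraries: the 20 kb upstream had 64.6 and 70.1% with YAP and 49.2 and 59.8% with TAZ, whereas the gene span had 24.0, 21.3, 21.7 and 21.2%. VGLL4 also had a well covered upstream flank, at 64.0, 65.8, 66.5 and 66.3%, but a sparse downstream flank of 11.4 to 25.4%. At TEAD4 the upstream 20 kb was covered by 67.9 to 87.9%, including a peak of 16249 bp in YAP replicate 1 and one of 17168 bp in YAP replicate 2, the widest of those libraries at these loci. WWTR1 differed from these, with nearly even coverage of 21.8 to 30.0% over the gene span and 21.2 to 26.6% upstream of it. TEAD1 had 15.7 to 28.5% upstream and 6.16 to 9.14% over the gene.

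Close to the gene starts, coverage was uneven and TAZ replicate 2 stood apart, mainly at TEAD2, TEAD3 and TEAD4. Within 5 kb of those starts it covered 98.5, 56.3 and 76.0%, where the next highest library had 47.6, 34.5 and 43.1%. It was slightly above the others at YAP1 and VGLL4, within their range at TEAD1 and lowest at WWTR1 (2.57%). The 5′ ends were taken from the spans, which are given to 1 kb, and that of WWTR1 may not be a start listed by RefSeq. Averaged over the 7 loci, the bases from 1 to 5 kb downstream of the start were covered by 11.4 and 16.0% with YAP, by 17.4% for the first TAZ replicate and by 35.0% for the second. From 5 to 10 kb upstream the same libraries had 68.4, 59.7, 49.8 and 57.7%, and from 5 to 10 kb downstream 43.4, 35.5, 45.5 and 37.4%. The first 1 kb inside the genes had 55.1, 28.7, 54.6 and 80.7%, above the stretch after it in every library. The 1 kb before the start had 8.86, 29.6, 17.2 and 50.2%. Coverage was thus also low just before the start in YAP replicate 1 and TAZ replicate 1. These distance ranges were chosen after seeing the values. The main measure, coverage within 5 kb of a start minus coverage of the rest, was -2.65 and 2.74 points for YAP and 2.22 and 19.3 points for TAZ. Its mean of 5.40 points over the 4 libraries became 0.768 without TAZ replicate 2, and it was 15 with 10 kb on each side, 1.52 with 2 kb and -0.570 when only peaks enriched at least 4-fold were counted.

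**Figure D3:**
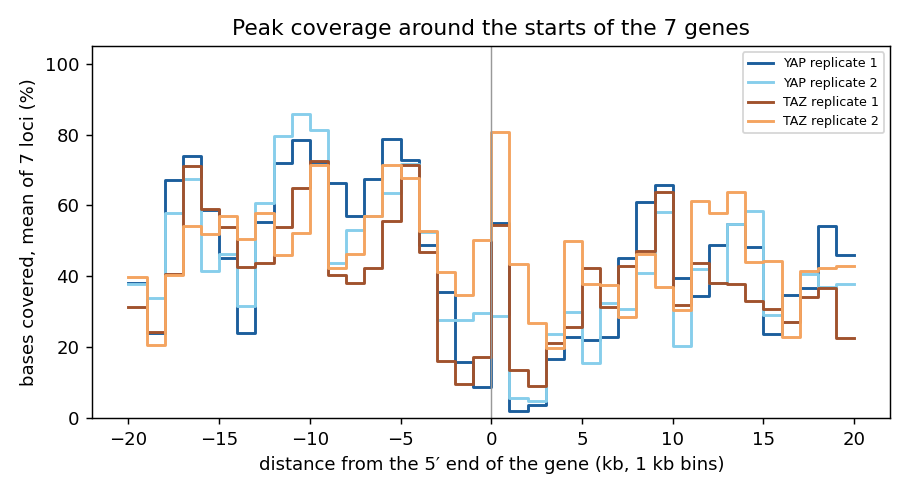
Mean percent of bases covered by deposited peaks over the 7 loci (vertical axis) in bins of 1 kb from 20 kb before to 20 kb after the 5′ end of the gene, 1 line per library. The lines of 3 libraries drop to between 2.10 and 13.5% from 1 to 2 kb after the start, and TAZ replicate 2 stays at 43.5%.

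A region lay over the start, taken as the 5′ end of the span, within 1 kb of it, at 6 of the 7 genes. The share of other gene starts that meet a region was not computed, so this count has no background beside it. At WWTR1 no library had a peak within 1 kb of that end. The WWTR1 span is 220 kb here and 207.6 kb in the RefSeq table, so its 5′ ends may not be the same. RefSeq's promoter table lists 2 starts for WWTR1. Neither was placed on the build of the peaks, so whether peaks lay over them was not examined. At TEAD3 the region ran from 35462123 to 35466438 on chromosome 6, and peaks covered 1463 and 2000 of the 2000 bases around the start with YAP and 1766 and 2000 with TAZ. The authors' fold there was 3.33 and 2.67 (YAP), 3.22 and 3.88 (TAZ). At TEAD2, on chromosome 19 from 49861150 to 49872730, a single TAZ replicate 2 peak of 10496 bp spanned all 2000 bases, whereas the other libraries covered 439, 0 and 450 of them. At YAP1 the region ran from 101981078 to 101982431 on chromosome 11. It had a peak in 3 of the 4 libraries, all but YAP replicate 2, its fold being 2.42 with YAP and 2.47 and 3.53 with TAZ. The VGLL4 start region, on chromosome 3 from 11760560 to 11762451, was present in every library, at a fold of 2.38 and 2.44 with YAP, 2.94 and 3.76 with TAZ. The TEAD1 start region, on chromosome 11 from 12694495 to 12696917, was present in every library too, at 2.30 and 3.23 with YAP, 2.40 and 2.90 with TAZ. At TEAD4 the region, on chromosome 12 from 3049747 to 3069483, reached over the start in the TAZ libraries, which covered 948 and 2000 of the 2000 bases, and ended before it in the YAP libraries, which covered 0. The authors' fold is set beside its own library only, since the lists differ in depth.

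Most regions at the loci held peaks of both antibodies. Of the 230 regions, 131 (57.0%) had a peak in all 4 libraries, against 39.2% of all merged regions. Both YAP libraries had a peak in 171 of them (74.3%, background 61.0%) and both TAZ libraries in 152 (66.1%, background 45.8%). Regions in all 4 libraries were wider, with a median of 2276 bp against 278 bp for those in 1 library. Over all merged regions the medians were 1744 and 336 bp. Merging joins the spans of overlapping peaks, so width and the number of libraries are not independent. The part of width in the share at the loci was not tested. The share in all 4 libraries ran from 17 of 51 regions at TEAD1 to 16 of 17 at TEAD4, with 8 of 10 at TEAD2, 8 of 11 at TEAD3, 41 of 66 at WWTR1, 18 of 32 at YAP1 and 23 of 43 at VGLL4. When the peaks themselves had to overlap by 50% of each other in every pair, 60 of the 225 peaks of YAP replicate 1 were matched in all 4 libraries. That match was not computed over all peaks of the library, so it has no background beside it. Among peaks enriched at least 4-fold 0 of 74 regions had all 4 libraries, where the share over all such regions was 0.460%.

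**Figure D4:**
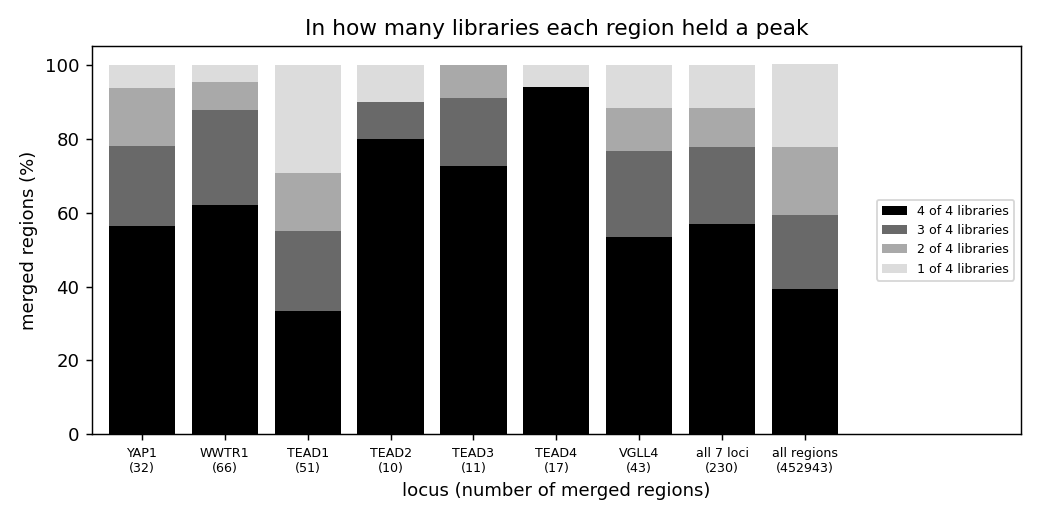
Share of merged regions (vertical axis, percent) with a peak in 4, 3, 2 or 1 of the 4 libraries at each locus, at the 7 loci together and among all regions; the number of regions stands under each bar. The darkest part, regions in all 4 libraries, is 94.1% at TEAD4, 33.3% at TEAD1 and 39.2% of all regions.

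Where a region lacked 1 library, it was most often TAZ replicate 2, the shortest list. Of the 48 regions with peaks in 3 libraries (20.9%, background 20.2%), 22 lacked TAZ replicate 2, 14 lacked YAP replicate 2, 8 lacked TAZ replicate 1 and 4 lacked YAP replicate 1. Among all such regions the missing one was TAZ replicate 2 in 43.1%, TAZ replicate 1 in 31.3%, YAP replicate 2 in 18.3% and YAP replicate 1 in 7.36%. The 27 regions in 1 library (11.7%, background 22.4%) numbered 10 and 8 for the YAP replicates and 4 and 5 for the TAZ replicates. Over all single-library regions the shares of the same libraries were 39.7, 20.2, 18.4 and 21.7%.

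Regions with peaks of 1 antibody in both its libraries and none of the other were few. YAP-only regions numbered 10 (4.35%, background 6.87%) and TAZ-only regions 3 (1.30%, background 1.44%). YAP1 held 3 YAP-only regions, TEAD1 held 3, WWTR1 held 2, and TEAD3 and VGLL4 held 1 each. The best ranked at YAP1 spanned 101978840 to 101979243 on chromosome 11, about 2 kb before the gene, and had a fold of 3.71 and 4.02. Another, inside the gene from 102038166 to 102038787, had 2.58 and 3.12. The WWTR1 pair lay on chromosome 3 at 149458744 to 149459171, upstream of the gene, with 3.39 and 3.27, and from 149448761 to 149449067 inside it, with 3.19 and 3.36. The TEAD1 regions named by rank were those from 12774331 to 12774692 (fold 3.37 and 3.71) and from 12911282 to 12912654 (fold 2.89 and 3.21), both inside the gene. At TEAD3 the YAP-only region ran from 35449710 to 35450428 (fold 2.90 and 3.58) and at VGLL4 from 11711203 to 11712445 (fold 3.09 and 2.91).

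The TAZ-only regions were 1 each at TEAD1, YAP1 and VGLL4. That of TEAD1 lay inside the gene on chromosome 11 from 12741490 to 12741757, 45.5 kb from the start. In TAZ replicate 1 it was among the 20000 peaks with the highest −log10 q, enriched 4.82-fold, and its −log10 q of 7.05 was the highest of that library at these loci. The second TAZ library had 3.44-fold enrichment there. That of YAP1 ran from 102077296 to 102077662, with a fold of 2.73 and 4.12, and that of VGLL4 from 11661353 to 11662322 on chromosome 3, with 2.41 and 3.08. These counts depend on every list, since leaving out a library drops the need for a second one of its antibody. Without YAP replicate 1 there were 19 YAP-only regions (8.23%, against 12.8% of all regions) and 18 TAZ-only (7.79%, against 5.64%). When YAP replicate 2 was dropped there were 20 (8.77%, against 16.6%) and 8 (3.51%, against 3.07%). Dropping TAZ replicate 1 gave 32 (13.7%, against 16.2%) and 9 (3.86%, against 6.68%), and dropping TAZ replicate 2 gave 18 (7.53%, against 13.7%) and 8 (3.35%, against 6.15%). The YAP-only share at the loci was below that of all regions each time, and the TAZ-only share was above it in 2 of the 4.

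Strong peaks, the 20000 of each library with the highest −log10 q, were no larger a share of the peaks at these loci than of all peaks, but were denser per base there in 3 libraries. YAP replicate 1 had 10 there, YAP replicate 2 had 12, TAZ replicate 1 had 12 and TAZ replicate 2 had 4. That is 4.44, 5.45, 5.41 and 2.07% of the peaks at the loci, against 5.10, 5.66, 6.00 and 6.44% of all deposited peaks in the same libraries. Per Mb the loci held 8.43, 10.1, 10.1 and 3.37 strong peaks, against 6.59 over the chromosomes in each library. By fold the loci stood higher in 3 libraries: 30, 27, 29 and 7 peaks reached a fold of 4, or 13.3, 12.3, 13.1 and 3.63%, against 9.22, 7.52, 9.68 and 5.60% of all peaks. The median fold at the loci was 3.30, 3.24, 3.24 and 3.02 in the same order, near the 3.14, 3.14, 3.16 and 3.03 over all peaks.

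**Figure D5:**
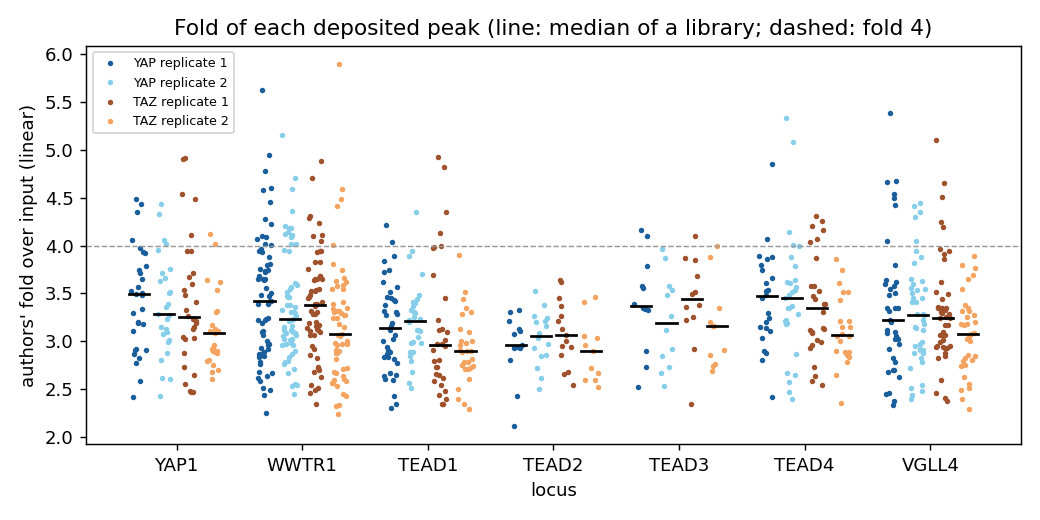
The authors' fold over input (vertical axis, linear) of every deposited peak at each locus, 1 column of points per library in the order YAP replicate 1 and 2, TAZ replicate 1 and 2; black lines are medians and the dashed line is a fold of 4. WWTR1 has the most points above the dashed line, 13, 13, 8 and 5 in the 4 libraries, and TEAD2 has none.

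The loci held 11 ± 1.4 strong peaks on average with YAP and 8 ± 5.7 with TAZ (SD, n = 2), with TAZ replicate 1 level with YAP replicate 2 (exact two-sided permutation p = 1). The difference of 3 became -1 without TAZ replicate 2 and 7 without TAZ replicate 1. It was 4 without YAP replicate 1 and 2 without YAP replicate 2.

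WWTR1 carried more of the strong peaks than any other of the loci. It also had the most peaks, 57 to 67 a library. Its strong peaks numbered 5 and 7 with YAP and 3 and 4 with TAZ, whereas VGLL4 had 4, 1, 2 and 0, YAP1 0, 2, 3 and 0, and TEAD4 1, 2, 2 and 0. TEAD1 had 2 in TAZ replicate 1 and 0 elsewhere. TEAD2 and TEAD3 had 0 in every library, with only 11 to 16 and 12 peaks a library to draw on. Of the 230 regions at the loci, 31 held a strong peak, a share near that of all regions, 60479 of 452943. Those 31 were 14 of 66 regions at WWTR1, 6 of 43 at VGLL4, 5 of 32 at YAP1, 4 of 17 at TEAD4 and 2 of 51 at TEAD1.

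Most of these were strong in a single library, as were most such regions of the genome. Strong peaks came from 1 library in 26 of the 31 regions (background 76.9% of 60479 regions holding a strong peak), from 2 in 4 (background 17.3%), from 3 in 1 (background 4.51%) and from all 4 in 0 (background 1.32%). Both YAP libraries were strong in 3 regions (background 7.20%) and both TAZ libraries in 0 (background 6.14%). The region strong in 3 libraries lay inside WWTR1 on chromosome 3 from 149253408 to 149253898, 201 kb from the 5′ end. The enrichment there was 4.95 and 4.60-fold with YAP and 4.70-fold in the first TAZ library. In the second TAZ library it was 2.97-fold and not strong. Also inside WWTR1, the region from 149237397 to 149237876 was strong in both YAP libraries, at a fold of 4.23 and 5.16, beside 3.16 and 4.0 with TAZ. The third was inside TEAD4, on chromosome 12 from 3114073 to 3116405, enriched 4.85 and 5.08-fold with YAP, 4.30 and 3.21-fold with TAZ. It was also the best ranked region of TEAD4 over all 4 libraries.

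The regions ranked best over the 4 libraries, among those with a peak in each, lay inside the gene at 5 loci and downstream of it at 2. Of all 131 regions with a peak in each library, 95 lay inside a gene and 5 over a start. At WWTR1 this was the region from 149406873 to 149407347, whose folds were 4.60 and 3.33 with YAP, 3.95 and 4.41 with TAZ, strong in YAP replicate 1 and TAZ replicate 2. At VGLL4 it ran from 11745440 to 11745968, 16.0 kb inside the gene, with 4.43, 4.05, 4.2 and 3.66. At YAP1 it ran from 102049672 to 102052935, with 3.78, 3.08, 3.71 and 4.02, and at TEAD1 from 12908168 to 12910050, with 3.56, 3.89, 3.13 and 2.90. For TEAD2 and TEAD3 it lay downstream of the gene, from 49823328 to 49826068 on chromosome 19 with 3.30, 3.52, 3.37 and 3.75, and from 35421786 to 35433325 on chromosome 6 with 4.10, 3.48, 4.10 and 3.35. The folds are in the order YAP replicate 1 and 2, then TAZ replicate 1 and 2.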

How the data were processed

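Broad peak lists of 4 antibody libraries were analysed. The submitters' processing notes list MACS2, Bowtie2, cutadapt and SAMtools and the build hg19. Their versions, roles and thresholds are not given in the sources used here. Each deposited fold is a ratio of ChIP over input signal computed by the authors, and the deposited −log10 p and −log10 q are the peak caller's. The deposited score was not used. Peak names inside all 4 lists give 1 common input, the list names an input per replicate number, so which input was used is unsettled and overlaps may share input reads. Read depth is unknown.

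Peaks on chromosomes 1 to 22 and X were used (Python 3.11.15, pandas 2.3.3, numpy 2.4.6). Peaks overlapping by at least 1 bp were merged into regions. Ranks follow −log10 q, with ties by −log10 p, fold and position. Strands came from the promoter table and, for TEAD1 and TEAD4, from general knowledge. All 7 loci are named; in each, the regions named were the best ranked in all 4 libraries, up to 3 strong in both libraries of an antibody, those at the gene start, and up to 2 YAP-only and 2 TAZ-only. The 500 kb neighbourhoods, 150 kb windows and chromosomes serve as background. Antibodies were compared by exact permutation tests over libraries. Merging and coverage were tested on simulated data. The members and lists were chosen with earlier results of these data known. Alternatives tried were stricter q-values (0.01) and folds (4), equal list lengths, other margins, rankings and overlaps, a replicate block, and leaving out each library.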

Additional observations from a re-analysis of the deposited data

How the results depend on the processing

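The YAP minus TAZ difference in coverage of the 7 loci was positive with every peak threshold, margin, list length, left-out library (0.0754 to 3.25 points) and left-out locus tried. It was largest, 4.69 points and without overlap between the antibodies, with a q-value of at most 0.01, and the antibodies also did not overlap without the TEAD4 locus (2.31 points). It turned to -0.171 as a ratio to each library's own coverage of the chromosomes. The ratio and the left-out loci were chosen after seeing the data. The difference in strong peaks was between -1 and 7 over the left-out libraries and positive with the other settings. With the replicate number as a block, the differences were 1.66 points (exact sign-flip permutation p = 1) and 3 strong peaks (exact sign-flip permutation p = 1), where the smallest possible p is 0.5; over 18952 windows, the deviations of the libraries numbered 1 from their antibody means had a correlation of 0.429, and the labels do not say what a number shares. Regions in all 4 libraries numbered 0 with a fold of at least 4, which keeps fewer peaks by construction. With a reciprocal overlap of 50%, 60 of the 225 peaks of YAP replicate 1 were matched in all 4 libraries. That match is stricter by construction, counts peaks, not merged regions, and was not computed over all peaks of the library. YAP-only regions numbered 3 with a fold of at least 4 (4.05%, against 3.48% of all such regions), so their share was above the background only there. They numbered 18 to 32 over the left-out libraries. TAZ-only regions numbered 1 with a fold of at least 4 (1.35%, against 1.69%) and 5 with a margin of 50 kb (1.63%, against 1.44%). Over the left-out libraries they numbered 8 to 18. Coverage near starts minus the rest was -0.570 points with a fold of at least 4, and the cause was not tested; over the left-out libraries it was 0.768 to 8.09. By locus, 53 of the 63 alternative differences moved by less than the spread between libraries. Leaving out a library cannot move a difference by more than that spread, so those settings count as unmoved by construction. The 10 that moved were all among the other settings.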

Other observations

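The single strongest peaks at these loci were chosen here after their values were seen. In YAP replicate 1 the peak with the highest −log10 q, 13.3, lay inside WWTR1 on chromosome 3 from 149345549 to 149346260, had a fold of 5.63 and met a peak in each of the other libraries. In TAZ replicate 2 it lay 203 kb from the 5′ end of WWTR1, from 149251724 to 149252039, with a fold of 5.90, and met a peak in only 1 other library. In YAP replicate 2 the highest fold, 5.33, was inside TEAD4 on chromosome 12 from 3118253 to 3118610, and in TAZ replicate 1 the highest fold, 5.11, was inside VGLL4 on chromosome 3 from 11715203 to 11715531. Both met a peak in each of the other libraries. In TAZ replicate 2 the widest peak, 10819 bp, lay downstream of TEAD3.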
